A study of Arabidopsis thaliana with 12 samples.

Results

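AT4G31530, AT1G62250, AT4G27390 and AT4G13550 are 4 nuclear protein-coding loci of Arabidopsis thaliana selected on a lower intensity in the toc160 mutant than in wild type on these same arrays, and labelled as little-studied chloroplast proteins. They are 4 of the 691 loci that a probe named alone, and each was measured by 1 probe. Because they were chosen by that difference, every difference between the genotypes below is a description and was not tested. The arrays carried total RNA of wild type (WT) or of the Arabidopsis toc160 mutant, both in the ecotype Wassilevskija, with 6 arrays in each group. Per the labels, toc160 plants import proteins poorly through the outer envelope of the chloroplast. The labels give no tissue, age, growth condition or allele, and do not say whether the replicates were separate plants.

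Toc160 is an earlier name of Toc159, a receptor of the chloroplast outer envelope that binds precursor proteins made in the cytosol and hands them to the import channel. Most chloroplast proteins are encoded in the nucleus and carry a cleavable N-terminal transit peptide that this machinery recognises. When import or plastid function is disturbed, plants are known to lower the nuclear transcripts of many photosynthesis proteins, a response called retrograde signalling. As background from outside the files, AT4G31530 belongs to the NAD(P)-binding Rossmann-fold family, whose members bind a dinucleotide cofactor and are often reductases or dehydrogenases. AT4G13550 belongs to the lipases, enzymes that release fatty acids from lipids. No role is given here for AT1G62250 and AT4G27390. The annotation used here lists the 4 loci by locus identifier alone, without a symbol, a function or a location, so the chloroplast label was not checked. AT1G62250 lies on chromosome 1 and the others on chromosome 4. No genome build is given for the arrays, and no coordinates are printed.

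Each array gave 1 deposited intensity for each of 3439 probes, on a linear scale in arbitrary units with a ceiling of 100. Sums per array were 3612 to 3681 in WT and 3720 to 3815 in toc160, and array medians were 0.477 to 0.551 in WT and 0.627 to 0.646 in toc160. Replicates 1 and 2 of a group were almost duplicates, as were 3 and 4 and also 5 and 6, so means ± SD are given over 3 pair averages. Whether such a pair is 1 RNA measured again is not stated. The number of arrays limits the precision. In these samples, fewer cells that use a gene and less RNA per cell cannot be told apart.

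The transcripts spanned most of the intensity range of the array. AT4G31530 gave one of its brightest signals, AT1G62250 and AT4G27390 were intermediate, and AT4G13550 was near the bottom. Levels of different probes depend on the probe as well as on the transcript, so these places describe how well each locus was measured and do not rank the transcripts.

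The AT4G31530 transcript was lower in toc160 on every array. In WT its deposited intensity was 37.0 at the lowest, 52.2 at the median and 53.3 at the highest, and in toc160 it was 12.9, 19.0 and 23.2. The groups did not overlap, and the lowest WT array was above the highest toc160 array. The mean of the pair averages (n = 3) was 47.6 ± 8.81 (SD) in WT and 18.4 ± 5.05 in toc160, a ratio of 2.59. Within the pairs of replicates 1 and 2, 3 and 4, and 5 and 6, WT exceeded toc160 by ratios of 2.27, 2.79 and 2.87. Among all 3439 probes it held rank 6 or 7 on the WT arrays and ranks 12 to 18 on the toc160 arrays.

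Level also varied between pairs of replicates, in both genotypes. Replicates 5 and 6 of WT averaged 37.4, against 52.3 for replicates 1 and 2 and 53.0 for replicates 3 and 4. The same replicates of toc160 averaged 13.0, against 23.1 and 19.0. The pair with the lowest AT4G31530 signal was therefore the same in WT and toc160, while the arrays within a pair differed by a ratio of at most 1.02. A second probe lists AT4G31530 together with AT5G02240 and AT2G37660, and it was not used because it names several genes.

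AT1G62250 was lower in toc160 on every array, by a ratio that varied little between pairs. Its deposited intensity in WT was 6.71 at the lowest, 6.99 at the median and 7.82 at the highest, and in toc160 it was 2.55, 2.62 and 3.03. The groups did not overlap, and the gap between them was wider than the range within either. WT averaged 7.16 ± 0.537 (SD, n = 3 pairs) and toc160 2.70 ± 0.204, a ratio of 2.65. The ratio of WT to toc160 was 2.57, 2.65 and 2.74 in the 3 pairs. Replicates 3 and 4 were the highest in both genotypes, at 7.76 in WT and 2.93 in toc160. The locus held ranks 49 to 63 of 3439 probes on the WT arrays and ranks 135 to 173 on the toc160 arrays.

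AT4G27390 showed a smaller difference that was nearly the same in each pair. Its deposited intensity in WT was 1.20 at the lowest, 1.77 at the median and 1.96 at the highest, and in toc160 it was 0.810, 1.14 and 1.23. Over all arrays the groups overlapped, because the lowest WT array, replicate 2, was below toc160 replicate 6. Between arrays of the same number, toc160 was lower in 6 of 6. WT averaged 1.65 ± 0.352 (SD, n = 3 pairs) and toc160 1.06 ± 0.204, a ratio of 1.56.

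Within the pairs the ratio of WT to toc160 for AT4G27390 was 1.52, 1.56 and 1.59. The overlap came from the level of the pairs. Replicates 1 and 2 averaged 1.25 in WT and 0.825 in toc160, replicates 3 and 4 averaged 1.77 and 1.14, and replicates 5 and 6 averaged 1.92 and 1.21. The pairs thus took the same order in both genotypes. WT array medians over all probes took that order too, at 0.477 on both arrays of replicates 1 and 2, 0.502 and 0.510 on replicates 3 and 4, and 0.535 and 0.551 on replicates 5 and 6. In toc160 the array medians were 0.627 and 0.631 on replicates 1 and 2, 0.640 and 0.641 on replicates 3 and 4, and 0.640 and 0.646 on replicates 5 and 6. After normalization to 1 distribution the locus lay 0.28 below its own mean in replicates 1 and 2 (log2 intensity, mean of the genotypes). The part of the array medians in the pattern was not tested.

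AT4G13550 was dim, and its deposited values go against calling it a falling transcript without qualification. Its deposited intensity in WT was 0.0949 at the lowest, 0.135 at the median and 0.206 at the highest, and in toc160 it was 0.0847, 0.120 and 0.155. The groups overlapped over most of their ranges. WT averaged 0.144 ± 0.0399 (SD, n = 3 pairs) and toc160 0.121 ± 0.0296, so the difference was smaller than the spread between pairs. The ratio of WT to toc160 was 1.23, 1.10 and 1.22 in the 3 pairs.

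Arrays of the same pair were less alike for this probe. Their largest ratio was 1.62 (toc160 replicates 3 and 4 at 0.0847 and 0.137), against at most 1.08 for the other 3 loci. Between arrays of the same number toc160 was lower in 5 of 6, the exception being replicate 4, with 0.122 in WT and 0.137 in toc160. On WT arrays 7.24% to 19.1% of the probes were dimmer than AT4G13550, and on toc160 arrays 6.11% to 9.83%. No array was at the floor used for low values, 0.0364. Whether the probe was above its background on any array is not given by the deposited table.

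**Figure D1:**
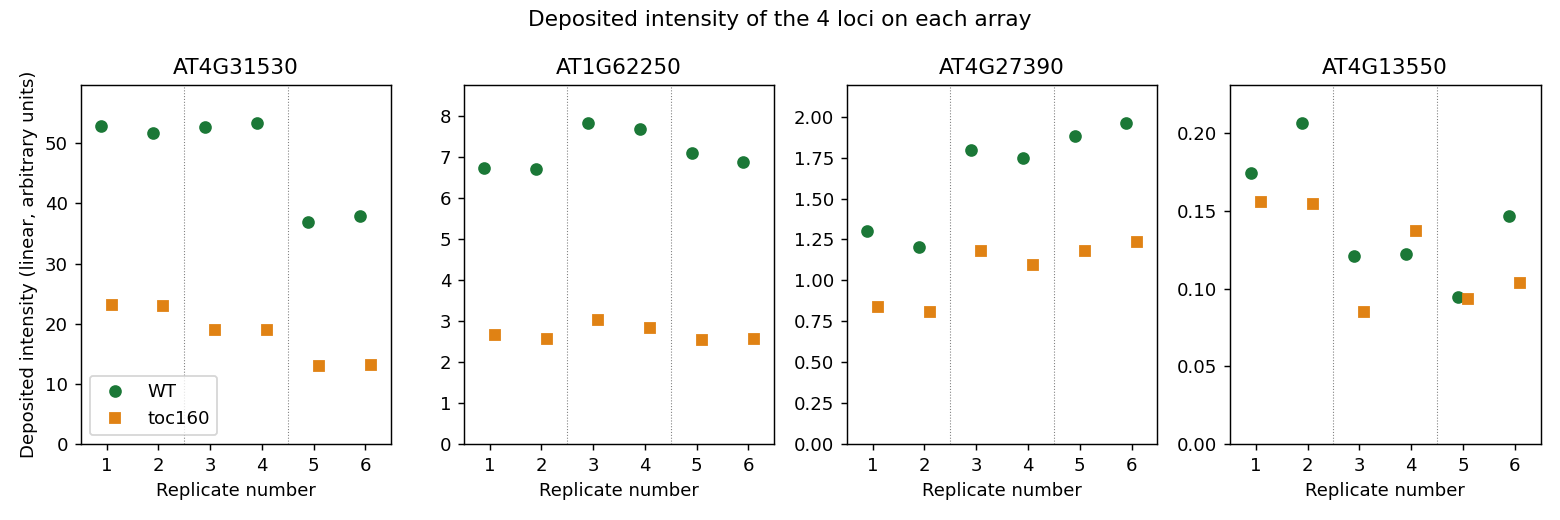
Deposited intensity (linear, arbitrary units) of each locus on the 12 arrays by replicate number, with WT as circles and toc160 as squares, each panel with its own scale from 0. Dotted lines separate the pairs of near-duplicate replicates. WT and toc160 stay apart for AT4G31530 and AT1G62250, are apart within each pair for AT4G27390, and mix for AT4G13550.

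For comparison with the other loci, all probes were set to 1 distribution per array (quantile normalization) and the genotypes were compared on the log2 scale with limma, 6 arrays against 6. On that scale AT1G62250 had the 4th lowest difference of the 691 loci, -1.24 (SE 0.07), and AT4G31530 the 9th lowest, -1.01 (SE 0.09). AT4G13550 followed in place 17, at -0.85 (SE 0.34), and AT4G27390 in place 18, at -0.81 (SE 0.13). The SE of AT4G13550 was thus the largest of the 4. The median over all loci was 0.03.

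At a Benjamini-Hochberg adjusted p of 0.05, limma called 72 of the 691 loci, 10.4%, in either direction, and 38 of them, 5.50%, were lower in toc160. Of the 4 loci, 3 were among those lower, all except AT4G13550. Same-numbered arrays of the genotypes deviated together, and with near-duplicate arrays averaged and the pair as a block limma called 12 loci, 1.74%, of which 10, 1.45%, were lower. That fit called 3 of the 4 as well, leaving out AT4G31530 in place of AT4G13550. With the replicate number as a block over single arrays it called 196 loci, 28.4%, of which 91, 13.2%, were lower, and these held 4 of the 4. Since this contrast chose the loci, their share is read as no more than that choice. On the deposited scale toc160 was lower in all 3 pairs for 4 of the 4 loci and for 4.63% of all loci, and the groups did not overlap, with toc160 below, for 2 of the 4 and for 2.60% of all loci. After normalization toc160 was lower in all 3 pairs for 4 of the 4 and for 21.0% of all loci, and the groups did not overlap for 3 of the 4 and for 4.20% of all loci.

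**Figure D2:**
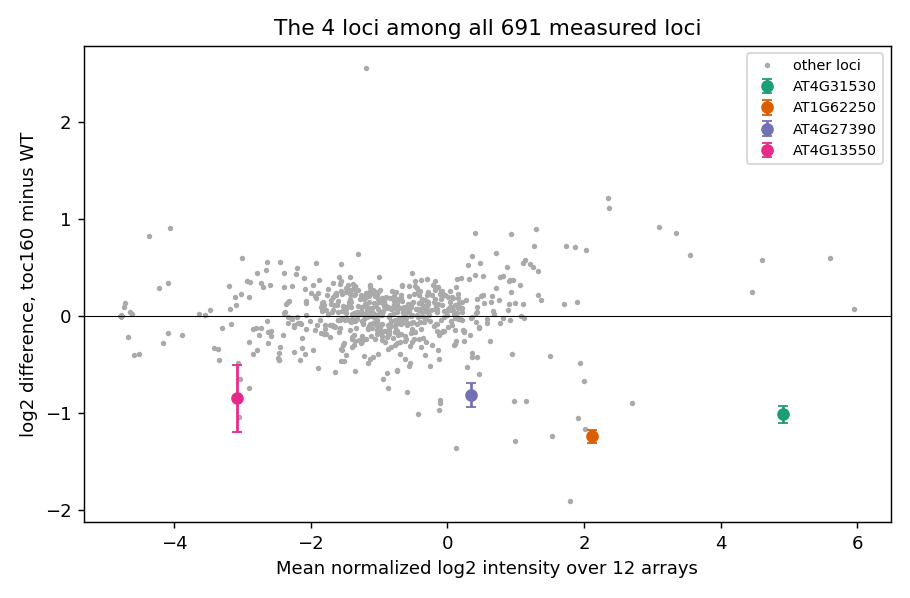
Log2 difference (toc160 minus WT) against mean normalized log2 intensity over the 12 arrays for the 691 loci (grey), with the 4 loci in colour and bars of 1 SE from limma. The 4 loci lie at similar depth below 0 but at levels from near the bottom to near the top of the range, and AT4G13550 has the widest bar.

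How far each locus lay below WT depended on the scaling, and for AT4G13550 by more than 3 times. As deposited, on the log2 scale, the differences were -1.39 for AT4G31530, -1.41 for AT1G62250, -0.64 for AT4G27390 and -0.24 for AT4G13550, beside a median of 0.33 over all loci. Median centring, which shifts each array as a whole, gave -1.72, -1.73, -0.96 and -0.57. Cyclic loess, which follows the shift along the intensity range, gave -1.29, -1.35, -0.83 and -0.60. The sign was negative for the 4 loci under each of these scalings. AT4G31530 and AT1G62250 were 0.01 apart as deposited and so also with median centring, which cannot change a gap between loci. They were 0.07 apart with cyclic loess and 0.23 apart after quantile normalization. AT1G62250 was the lower in each. Quantile normalization over the single-gene probes alone turned that order, at -1.44 for AT4G31530 and -1.26 for AT1G62250.

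The 2 loci at the ends of the intensity range were affected in opposite directions. Quantile normalization replaces a value by the mean value of its rank, and 5 of the 6 WT arrays gave AT4G31530 the same normalized log2 intensity, 5.38, although their deposited intensities ran from 37.0 to 53.3. Its normalized difference was smaller than the deposited one. For AT4G13550 it was larger. With the floor raised to the 5th percentile of positive intensities, the 3 pair differences of AT4G13550 were -0.69, 0.03 and -0.08, against -0.82, -0.85 and -0.88 with the floor at the 1st percentile. Its small spread between pairs in quantile-normalized values therefore did not hold at another floor.

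**Figure D3:**
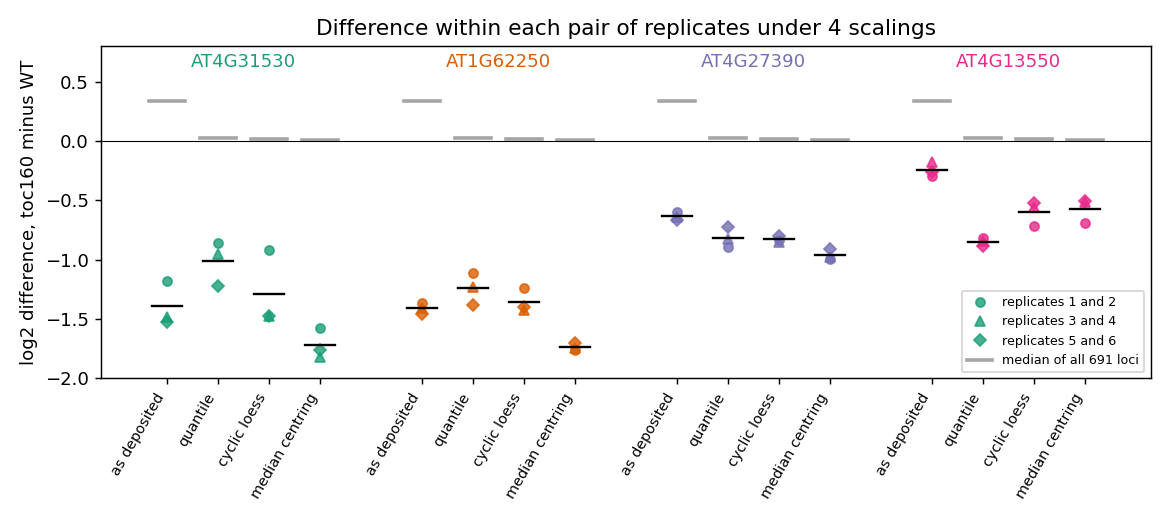
Log2 difference (toc160 minus WT) of each locus within the 3 pairs of replicates (symbols) and over all arrays (black bars), under 4 scalings, with the median of all 691 loci as grey bars. All symbols lie below 0. As deposited, the symbols of AT1G62250 and AT4G27390 lie closer together than those of the other loci, and AT4G13550 is nearest to 0.

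The likeness of the profiles was measured as the root mean square difference in normalized log2 intensity over the 6 pair averages, after each locus was centred on its own mean. It includes the difference between the genotypes, so part of any likeness among the 4 is how they were chosen. AT4G31530 and AT1G62250 were the closest of the 6 possible pairings, at 0.17, which made AT4G31530 the 2nd nearest of 690 loci to AT1G62250. The median distance from AT1G62250 to all other loci was 0.68. AT4G27390 lay 0.27 from AT1G62250 and 0.30 from AT4G31530. AT4G13550 lay 0.46 from AT4G31530, 0.60 from AT1G62250 and 0.70 from AT4G27390, in places 82, 141 and 609 of 690. The distances from AT4G31530 and AT1G62250 were below the medians over all loci, 0.58 and 0.68. That from AT4G27390 was above its median of 0.52. After quantile normalization the 4 loci thus did not form 1 tight group, and AT4G13550 was the farthest from each of the others. Median centring shifts all loci of an array alike, so its distances equal those without normalization and are not a separate check. Without normalization, or with median centring, AT4G31530 and AT1G62250 were still the closest, at 0.28. AT4G27390 then lay 0.45 from AT1G62250 and 0.64 from AT4G31530. AT4G13550 lay 0.62 from AT4G31530, 0.68 from AT1G62250 and 0.59 from AT4G27390. On those scales AT4G13550 was nearer to AT4G27390 than AT4G31530 was, so whether AT4G13550 was the farthest depended on the scaling.

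With each genotype centred on its own mean, only the variation between pairs of replicates remained. This removes the difference between the genotypes, but the limma contrast that chose the loci also depends on the variation within genotypes. The distance is not scaled to the variation of a locus, so loci that vary little lie close to each other whatever their pattern. AT4G31530 and AT1G62250 were then 0.12 apart, in place 60 from AT4G31530, where the median locus was 0.24 away. From AT4G31530 to AT4G27390 the distance was 0.28, farther than to the median locus, and AT4G27390 was in place 440. AT1G62250 and AT4G27390 were 0.16 apart, closer than the median locus from either (0.23 and 0.27), in places 196 and 118 of 690. AT4G13550 lay at 0.45 from AT4G31530, 0.56 from AT1G62250 and 0.70 from AT4G27390, beside median distances of 0.24, 0.23 and 0.27 from those loci to all others. Between pairs of replicates AT1G62250 was thus closer than the median locus to both AT4G31530 and AT4G27390, which were not that close to each other. AT4G13550 was farther from each of the 3 than their median locus, although seen from AT4G13550 the distance to AT4G31530 (0.45) was below the median of 0.52. These are descriptions over near-duplicate arrays that share their scaling.

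The size of the variation between pairs differed as well on the normalized scale. After normalization and averaged over the genotypes, the range between the 3 pairs was 0.25 for AT4G31530, 0.20 for AT1G62250 and 0.45 for AT4G27390 on the log2 scale, and the median over all loci was 0.42. For AT4G13550 it was 1.26, larger than in 96.7% of the other loci. These sizes hold for quantile-normalized values only, where most WT arrays of AT4G31530 were given the same value. As deposited, the pair averages of AT4G31530 ran from 37.4 to 53.0 in WT and from 13.0 to 23.1 in toc160. Those of AT4G13550 ran from 0.121 to 0.190 and from 0.0986 to 0.155. AT4G13550 was highest in replicates 1 and 2 and lowest in replicates 5 and 6 of both genotypes, and AT4G27390 was lowest in replicates 1 and 2 and highest in replicates 5 and 6 of both. As deposited, 2 of the 4 loci, AT4G27390 and AT4G13550, kept 1 order of the pairs in WT and toc160, as did 48.2% of all loci. A pair of replicates with the same extreme in both genotypes was found for 4 of 4 and for 84.8% of all loci, so shared variation between same-numbered arrays was common on these arrays.

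**Figure D4:**
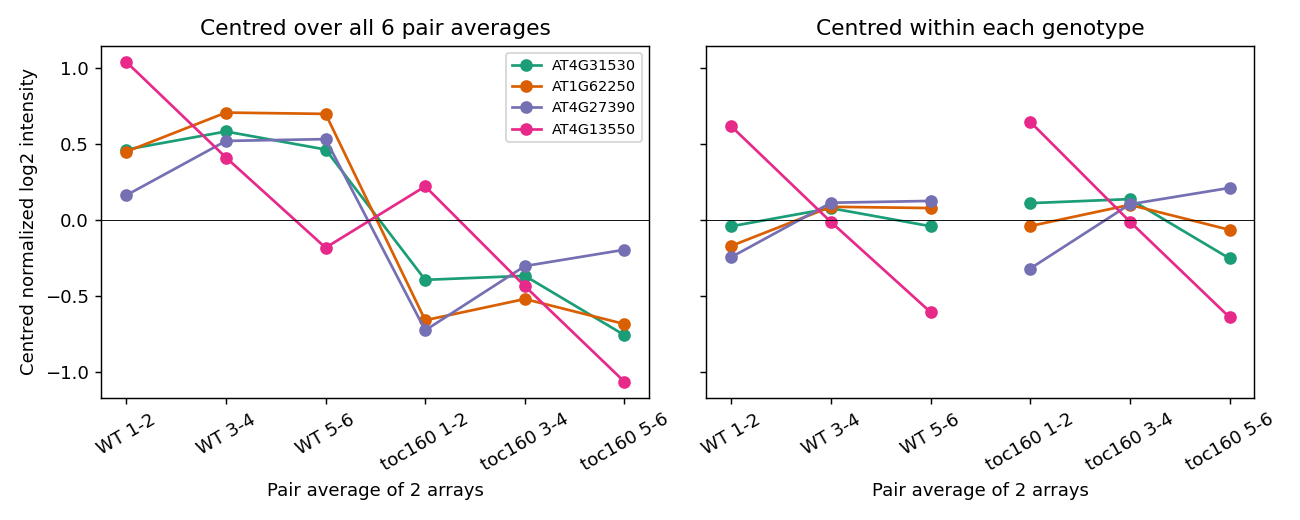
Centred normalized log2 intensity of the 4 loci in the 6 pair averages (2 arrays each), centred over all 6 (left) and within each genotype (right); lines only join the points of a locus and imply no order. On the left, AT4G31530, AT1G62250 and AT4G27390 drop together in toc160, and on the right AT4G13550 and AT4G27390 run in opposite directions.

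Among all 691 loci, the 3 whose profiles were nearest to each of the 4 were listed by the same distance. Nearest to AT4G31530 were AT1G21660 (distance 0.07), AT4G19900 (0.12) and AT5G52530 (0.13), with normalized log2 differences of -0.87, -0.90 and -0.97. Nearest to AT1G62250 were AT4G31470 (0.10), AT4G31530 (0.17) and AT1G21660 (0.22). AT1G21660 was thus near both of the brighter loci.

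Nearest to AT4G27390 was PSBY, a small subunit of photosystem II, at a distance of 0.17. The transcript of PSBY went from a deposited mean of 1.20 over the 6 WT arrays to 0.773 over the 6 toc160 arrays. AT3G51500 (0.20) and AT1G11730 (0.21) followed, with deposited means of 0.748 and 0.131 in WT and 0.659 and 0.125 in toc160. The AT1G11730 profile includes a deposited 0 on toc160 replicate 2, which was raised to the floor. How far that value set its place was not tested. Nearest to AT4G13550 was PRK, the Calvin cycle enzyme phosphoribulokinase, at a distance of 0.27, with deposited means of 0.591 in WT and 0.483 in toc160. AT4G30740 (0.30) and AT2G23390 (0.31) followed, and their deposited means were 0.647 and 0.188 in WT and 0.494 and 0.197 in toc160. The neighbours of AT4G13550 were the farthest of the 4 sets. Without normalization, or with median centring, 1 of the 3 nearest loci was the same for AT4G31530, AT1G62250 and AT4G13550, and 2 of 3 for AT4G27390. Both scalings give the same distances between loci, so this is 1 check.

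Position in the genome gave 2 measured loci within 10 annotated genes of any of the 4. AT4G31470 lies 6 genes from AT4G31530 and was also the locus nearest in profile to AT1G62250. Its deposited mean was 3.30 in WT and 1.37 in toc160, and its normalized log2 difference was -1.29 (SE 0.11). Its probe, number 3191, is 24 numbers from the probe of AT4G31530, number 3215. SPL, which encodes the regulator of spore formation SPOROCYTELESS, lies 7 genes from AT4G27390 and had a normalized log2 difference of 0.32 (SE 0.12), opposite in sign. No measured locus lay within that distance of AT1G62250 or AT4G13550.

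Of the probes next to those of the 4 loci by number, 18 of 20 (90.0%) had a higher deposited mean in toc160, near the 83.0% of all 3439 probes. Within 3 numbers, AT4G31530 had 5 other probes, and 4 of them had a higher mean in toc160. The 6 probes around AT4G27390 and the 5 around AT4G13550 all had a higher mean in toc160, as did 3 of the 4 around AT1G62250. None of these 20 probes had a mean intensity above 1.45. Whether probes close in number also lie side by side on the array is not stated.

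A pair of gene lists around the background of AT4G31530 and AT4G13550 had few measured members. Of 42 loci of plastid fatty acid, galactolipid and oxylipin metabolism 2 were measured, and of 19 plastid Rossmann-fold reductases and their relatives 2 were measured. In limma 0 of 2 and 0 of 2 passed over all loci, with 0 and 0 at an unadjusted p under 0.05, and 0 and 0 in the fit on pair averages blocked by pair. The median normalized log2 differences were 0.15 and 0.11, beside 0.03 over all loci.

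The lipid list was measured through FATB, a thioesterase that releases fatty acids from their carrier in the plastid, and PLIP1, a plastid lipase. FATB had a log2 difference of 0.22 (SE 0.11, limma adjusted p 0.315) and PLIP1 one of 0.07 (SE 0.44, adjusted p 0.980). The other list was measured through KAR, a ketoacyl reductase of plastid fatty acid synthesis, at 0.13 (SE 0.09, adjusted p 0.458), and AT1G32220, at 0.08 (SE 0.24, adjusted p 0.926). On the deposited scale all loci had a median of 0.33. There FATB (0.63, limma adjusted p 0.00111) and KAR (0.55, adjusted p 0.00512) passed as higher in toc160. In the same fit 266 of the 691 loci passed as higher, so such a call was common and does not set these genes apart. With median centring and cyclic loess, 0 of the 4 passed in limma. All 4 signs were positive. The negative signs of the 4 loci described here follow from how those loci were chosen, so the signs are not set against each other. With 2 measured members a list, these values say little of either pathway.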

How the data were processed

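Total RNA of 6 WT and 6 toc160 samples, grouped by title, was measured on 1 array each. The authors deposited linear intensities, which the values show, with 1 value for a probe on an array. Scanning, background correction and scaling are not given in the sources used here. Probes were named by the platform annotation, in which 692 probes had 1 gene, 870 had more and 1877 had none. Of the 692, 690 matched TAIR10.1 by gene identifier, and averaging probes of 1 locus left 691.

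Values below the 1st percentile of positive intensities (0.0364) were raised to it, log2 transformed and quantile normalized over all 3439 probes. Locus values were fitted with limma 3.58.1 in R 4.3.3, two-sided, with Benjamini-Hochberg adjustment over 691 loci and a threshold of 0.05. The fit was tested on simulated data with independent arrays and no pairs, so that test does not cover near-duplicate arrays. Near-duplicate arrays enter the fit as separate samples, and its p-values measure only the spread between these samples, which may be technical. Log2 differences are toc160 minus WT.

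The replicate numbers pair the samples, as the data show and no label states. Deviations from group means correlated across loci at 0.482 to 0.727 in the 6 same-numbered pairs, and 12 of 12 arrays were closest to their own number. Spearman correlations across loci were 0.981 to 0.989 within replicates 1 and 2, 3 and 4, and 5 and 6 of a group, and 0.877 to 0.947 between other arrays of a group.

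The members, lists and rules were chosen with earlier results of these data known. Named genes are the 4 loci, the 3 nearest in profile to each, measured list members and, added after values were seen, loci within 10 annotated genes. Alternatives covered scaling, floor, pseudocount, dim loci, blocks and left-out arrays. No sequence of the 4 loci was used here.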

Additional observations from a re-analysis of the deposited data

Results flagged for a closer look

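Within the groups of 6 arrays, 36 groups of 18 named loci were checked for an array apart from the rest on the normalized log2 scale, and 2 groups held one. About 5% of groups would be expected by chance if the arrays were independent. Near-duplicate arrays are not, and normalization can give several arrays the same value, so that rate is not a measure for these groups. On WT replicate 3, AT4G31530 was at 5.62 and the other WT arrays at 5.38, a gap equal to the whole range. Its deposited intensity was 52.7, within the 37.0 to 53.3 of the other WT arrays. For AT1G11730, one of the loci nearest to AT4G27390, the normalized value of toc160 replicate 2 was -4.78, and the closest among the remaining arrays was -3.14. The deposited value there was an exact 0, against 0.129 to 0.166 on the other toc160 arrays.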

How the results depend on the processing

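The sign of the log2 difference was negative for the 4 loci under every alternative run, 26 each and 24 for AT4G13550, which the filter on the dimmest 25% of loci removed. Blocks, pair averages and that filter leave the difference itself unchanged, so those runs could not alter the sign. The loci were also chosen for a lower intensity in toc160. Differences moved by more than the SD between pairs as follows. Without normalization they were -1.39 (AT4G31530), -1.41 (AT1G62250), -0.64 (AT4G27390) and -0.24 (AT4G13550). With median centring they were -1.72, -1.73, -0.96 and -0.57. Cyclic loess moved AT4G31530 to -1.29 and AT4G13550 to -0.60, and quantile normalization over single-gene probes moved them to -1.44 and -0.81. AT4G13550 was also -0.46 with a pseudocount of 0.1 and -0.25 with the floor at the 5th percentile. It moved in 16 of its 24 alternatives, and the moves not listed here were fits without a single array. Its SD between pairs was only 0.032, a small spread that did not hold at another floor. Leaving out single arrays or pairs gave -1.09 to -0.90 for AT4G31530, -1.31 to -1.17 for AT1G62250, -0.87 to -0.74 for AT4G27390, -1.04 to -0.70 for AT4G13550 and 51 to 71 loci past the threshold.

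The number of loci past the threshold was 72 and went to 292 without normalization (266 higher, 26 lower), 196 with a replicate block by number, 3 on pair averages without a block, 12 with the pair as a replicate block, and 116 with that block and the dimmest 25% left out, an alternative added after seeing the data. With median centring it was 106, of which 25 were higher and 81 lower, against 34 and 38. The causes were not tested. Motif searches in promoters and proteins were not run, because no sequences were used here. Without a stated background, how far the dim AT4G13550 signal lay above it is not known.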
